A study of Mus musculus with 34 samples.

Results

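The genes described here encode RAB and ARL small GTPases. They were chosen by name: every gene of the count table whose symbol is Rab followed by a digit, or Arl followed by a digit and an optional letter, apart from Arl6 and the Arl6ip genes. The genes reported number 77, 59 Rab and 18 Arl. Of these, 72 (56 Rab and 16 Arl) had at least 10 counts in 4 or more of the 34 libraries, among 21647 genes in the table and 14948 that passed the same filter. Arl13a, Arl14, Rab17, Rab25 and Rab44 did not pass. Rab37 stood just inside the limit, with 8 libraries at 10 counts or more and a highest count of 14, and Rab17 just outside it, with 0 such libraries and a highest count of 8. The symbol rule leaves out regulators that carry a Rab or Arl name, such as Rab3gap1 and Arl2bp.

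Bulk RNA sequencing had been done on 6 groups of mouse ependymal cell cultures. Ependymal cells carry many motile cilia and form the lining of the brain's ventricles. The groups were Rfx1-/- (4 samples), Rfx2-/- (6) and Rfx3-/- (6), each beside +/+ siblings of its own line (4, 8 and 6 samples), and are called knockout (KO) and wild type (WT). All cultures were grown from lateral ventricular walls of embryos at E18.5, given as C57BL/6 in the labels, although all sample titles also carry the unexplained term OF1, and all were differentiated by 4 days without serum. The labels do not say whether replicates came from separate embryos, so p-values measure the spread between samples, which may be technical.

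RAB and ARL proteins are molecular switches: bound to GTP they recruit effectors to a membrane, and bound to GDP they are inactive. Exchange factors load GTP, GTPase-activating proteins end the signal, and lipid anchors hold the proteins on membranes, so that each organelle carries its own set. A subset serves the cilium, where ARL3 releases lipid-linked cargo, and RAB11 and RAB8 bring membrane to the growing organelle. The genes removed here encode RFX transcription factors, whose known X-box binding sites lie near many ciliary genes, and each knockout was set against its siblings to find the genes that differ without the factor.

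Total counts per library (M, mega) ran from 18.15 M to 22.48 M in Rfx1 KO and from 19.72 M to 50.94 M in Rfx1 WT, from 27.4 M to 33.37 M in Rfx2 KO and from 29.08 M to 40.07 M in Rfx2 WT, and from 23.1 M to 43.09 M in Rfx3 KO and from 24.73 M to 53.41 M in Rfx3 WT. Levels are given as CPM, counts scaled to library size, on one TMM scale over all 34 libraries. The targeted genes were lower in every knockout library than in any sibling: Rfx1 ran from 19.9 to 30.2 CPM in Rfx1 KO and from 52.8 to 77.4 CPM in Rfx1 WT, Rfx2 from 43.3 to 55.3 CPM in Rfx2 KO and from 83.4 to 125.8 CPM in Rfx2 WT, and Rfx3 from 25.2 to 51.8 CPM in Rfx3 KO and from 156.5 to 206.2 CPM in Rfx3 WT. Foxj1, which defines multiciliated cells, was present in all libraries (639 to 2018 CPM).

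Several libraries stood apart. In Rfx3 KO replicates 4 to 6, Foxj1 was at 754, 755 and 677 CPM, against 1394 to 1473 CPM in KO replicates 1 to 3 and 1431 to 1714 CPM in Rfx3 WT. Summed over 10 ependymal markers, the level was 968 to 2429 CPM in Rfx3 KO and 2616 to 3184 CPM in Rfx3 WT, and 1198 to 1464 CPM in Rfx2 KO and 1487 to 2957 CPM in Rfx2 WT, with no overlap in either line. It was 2152 to 3638 CPM in Rfx1 KO and 2622 to 3383 CPM in Rfx1 WT. Pdgfra, a marker of oligodendrocyte precursors, exceeded 10 CPM in 4 of 6 Rfx3 KO and 1 of 6 Rfx3 WT libraries, in 3 of 6 Rfx2 KO and 3 of 8 Rfx2 WT libraries, and in 1 of 4 Rfx1 KO and 1 of 4 Rfx1 WT libraries. In a bulk sample, fewer cells of a type and less RNA per cell cannot be told apart, and the part of these shifts in the results below was not tested unless a value is given. Rfx3 KO replicate 3 stood apart from the other 5 Rfx3 KO libraries in both directions: of the 72 RAB and ARL genes it was the highest for 29 and the lowest for 16, and it lay beyond the others by more than their whole range above for 22 and below for 5. Each of the other 5 lay so above for 0 to 2 genes and below for 0. The same counts over all genes are not given here, so they show nothing particular to RAB and ARL genes. Rab24, for example, was at 87.8 CPM in KO replicate 3 and at 41.8 to 51.2 CPM in the other 5. Arl5a was at 71.2 CPM in KO replicate 3 and at 119.1 to 169.9 CPM in the other 5. Rab24 shares 62.4% of its exon bases with Prelid1 on the other strand, and the strand setting of the counting is not given. Where the call of a named RAB or ARL gene turns on this library, the result without it is stated. Regulators are given with all libraries only.

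Among the 14 ciliary GTPases, 4 fell and 1 rose in Rfx2 KO, 1 fell and 3 rose in Rfx3 KO, and none was called in Rfx1 KO. Rab36 fell in both the Rfx2 and the Rfx3 line. A gene was called where the Benjamini-Hochberg adjusted p of the edgeR quasi-likelihood test, over all genes tested in that line, was below 0.05. Over all 70 RAB and ARL genes tested in the Rfx2 line, 9 fell (12.9%) and 19 rose (27.1%), where 18.4% of all 14305 genes tested fell and 13.9% rose (32.3% together). In the Rfx3 line 4 of 70 fell (5.71%) and 13 rose (18.6%), where 12.9% of all 14340 genes fell and 10.6% rose (23.5% together). In the Rfx3 line 11 genes had every KO library above every WT library and 2 had every one below, where the shares over all genes tested were 6.09% and 9.39%.

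Rab36 (ENSMUSG00000020175, chromosome 10, 75037058 to 75054748, GRCm38) encodes a close relative of the ciliary vesicle GTPase RAB34. Its lowest, median and highest levels were 45.0, 59.9 and 88.3 CPM in Rfx3 KO, against 99.6, 105.2 and 117.4 CPM in Rfx3 WT. Every Rfx3 KO library lay below every sibling, and replicates 4 to 6, the libraries with low Foxj1, were the 3 lowest. The log2 fold change was -0.74 (SE 0.16, adjusted p = 0.0075). In the Rfx2 line the levels were 58.3, 72.3 and 87.7 CPM in KO, against 76.5, 105.1 and 126.3 CPM in WT. The groups overlapped through WT replicates 1 and 5, the lowest of their group, while all 6 KO libraries were below the WT mean. The log2 fold change was -0.49 (SE 0.12, adjusted p = 0.0058). In the Rfx1 line Rab36 was at 96.3, 122.4, 138.6 and 93.5 CPM in KO and at 96.1, 101.4, 126.2 and 114.7 CPM in WT. Those groups overlapped throughout, and the log2 fold change was 0.04, with an approximate 95% interval from -0.23 to 0.31. That interval is a normal approximation from the SE and is likely too narrow for so few samples.

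**Figure D1:**
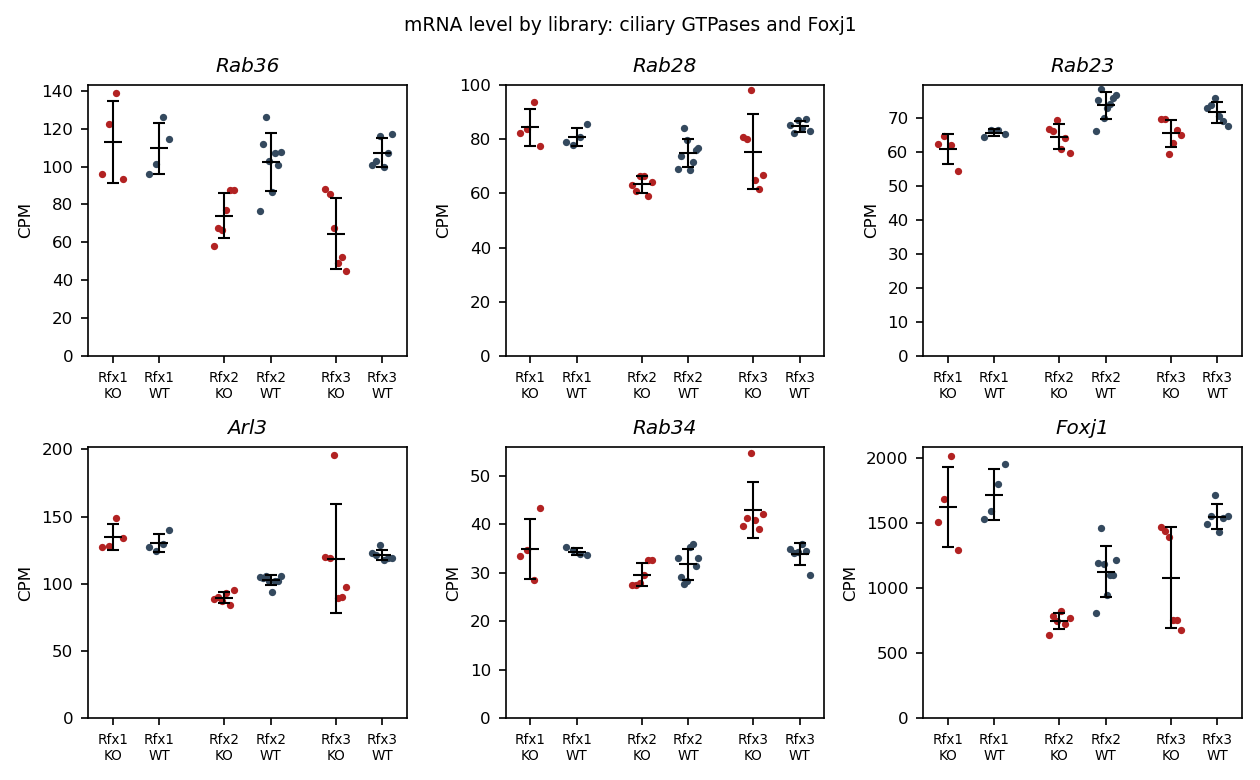
Level by library (points, CPM) of Rab36, Rab28, Rab23, Arl3, Rab34 and the multiciliated-cell factor Foxj1 in the 6 groups, knockouts in red left of their wild types in dark blue, with the group mean and SD in black. Rfx3 KO lies wholly below Rfx3 WT for Rab36 and wholly above it for Rab34, and a single Rfx3 KO library stands high for Arl3 at 196 CPM.

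Promoter sequence was matched for 60 of the 72 genes (RefSeq, GRCm38.p6, 73 promoters of 250 bases before and 50 after the start). The 6-letter X-box core GTTGCC, on either strand, was in 4 of the 73 (5.48%), against 12.5% of all 32851 promoters, and the X-box consensus, an inverted pair of imperfect copies of that core, in 18 (24.7%), against 34.7%. Neither motif was more frequent in these genes than in promoters at large, and a match of letters is a description and not a binding site. Counted by gene, with a match in any promoter of the gene, the consensus was in 4 of 7 called lower in Rfx2 KO (Arl16, Rab15, Rab23 and Rab28), in 3 of 15 called higher (Arl4c, Rab14 and Rab31) and in 11 of 37 not called, counts given with no test. For Rfx3 KO it was in 1 of 2 called lower (Arl4a), in 2 of 11 called higher (Arl4c and Rab13) and in 14 of 46 not called. No share by gene over all genes is given to read these few genes against. Genes with several promoters, such as Rab15 and Rab23, have more places for a match. These counts of genes therefore cannot be set beside the shares of promoters above. The 250 bases upstream are shown for a pair of the lower genes and for Arl4c, called higher, with the match in capitals. In Rab28 (chr5:41708180-41708429, minus strand) the consensus runs from -33 to -20, in Arl16 (chr11:120467601-120467850, minus strand) from -168 to -155 and in Arl4c (chr1:88702192-88702441, minus strand) from -212 to -200.
Rab28: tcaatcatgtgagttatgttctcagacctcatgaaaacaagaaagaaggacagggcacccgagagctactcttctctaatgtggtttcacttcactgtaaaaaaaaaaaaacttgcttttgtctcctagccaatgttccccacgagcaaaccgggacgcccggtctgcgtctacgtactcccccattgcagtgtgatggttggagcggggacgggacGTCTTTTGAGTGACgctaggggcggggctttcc
Arl16: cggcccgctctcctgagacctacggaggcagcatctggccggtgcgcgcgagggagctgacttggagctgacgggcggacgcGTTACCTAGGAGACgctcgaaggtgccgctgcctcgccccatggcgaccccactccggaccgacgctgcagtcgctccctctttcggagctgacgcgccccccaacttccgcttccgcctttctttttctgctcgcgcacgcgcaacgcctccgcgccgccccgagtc
Arl4c: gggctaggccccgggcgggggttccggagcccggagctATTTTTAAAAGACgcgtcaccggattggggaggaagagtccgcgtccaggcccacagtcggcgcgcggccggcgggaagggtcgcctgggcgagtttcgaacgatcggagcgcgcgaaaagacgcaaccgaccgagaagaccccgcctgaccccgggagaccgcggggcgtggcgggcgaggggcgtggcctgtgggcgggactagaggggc
No Rab36 promoter was matched.

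Rab28, Arl3 and Rab23 also fell in Rfx2 KO. Rab28 (chromosome 5, 41624976 to 41708157), whose human form is mutated in cone-rod dystrophy, had lowest, median and highest levels of 58.9, 63.7 and 66.3 CPM in Rfx2 KO, against 68.7, 74.8 and 84.0 CPM in Rfx2 WT. No KO library reached the lowest sibling, and the log2 fold change was -0.26 (SE 0.051, adjusted p = 0.0014). Of all RAB and ARL genes, 2 had every Rfx2 KO library below every WT library, Rab28 and Arl16, and 6 had every one above, where the shares over all genes tested were 6.69% below and 4.05% above. Arl3 (chromosome 19, 46531096 to 46573198), the cargo-release GTPase itself, was at 84.2, 89.5 and 95.1 CPM in Rfx2 KO, against 93.7, 103.6 and 106.2 CPM in Rfx2 WT. Only WT replicate 5 fell within the KO range, and the log2 fold change was -0.22 (SE 0.036, adjusted p = 0.0005), a call absent from the fit of all 34 libraries. Rab23 (chromosome 1, 33719887 to 33742564), a negative regulator of Hedgehog signalling in the mouse, was at 59.5, 65.1 and 69.2 CPM in Rfx2 KO, against 66.2, 74.6 and 78.6 CPM in Rfx2 WT. The groups overlapped through WT replicate 1, and the log2 fold change was -0.21 (SE 0.049, adjusted p = 0.0040).

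In the Rfx3 line these 3 genes were not called with all 12 libraries. Arl3 was at 89.2, 108.5 and 196.1 CPM in KO, against 117.9, 120.5 and 128.6 CPM in WT (adjusted p = 0.87). KO replicate 3 alone lay above all siblings, and KO replicates 4 to 6 lay below all of them. Without KO replicate 3 the log2 fold change was -0.24 with an adjusted p of 0.034. Rab28 was at 61.5, 73.4 and 98.1 CPM in KO, against 82.1, 84.6 and 87.2 CPM in WT (adjusted p = 0.20). Again KO replicate 3 was the only KO library above the siblings, and without it the log2 fold change was -0.26 with an adjusted p of 0.013. Rab23 was at 59.3, 65.7 and 69.6 CPM in KO, against 67.6, 71.7 and 75.7 CPM in WT, and all 6 KO libraries were below the WT mean (adjusted p = 0.087, and 0.054 without KO replicate 3).

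Other ciliary GTPases were higher. Rab34 (chromosome 11, 78188430 to 78192193), needed to form the ciliary vesicle, was at 39.1, 41.1 and 54.6 CPM in Rfx3 KO, against 29.6, 34.5 and 36.0 CPM in Rfx3 WT. All KO libraries lay above all siblings, KO replicate 3 being the highest. The log2 fold change was 0.33 (SE 0.083, adjusted p = 0.014), and 0.26 without that library. In the Rfx2 line Rab34 was at 27.5, 28.8 and 32.8 CPM in KO, against 27.7, 32.2 and 36.0 CPM in WT, with overlapping groups (adjusted p = 0.20). Its effect differed between the lines: the Rfx2 effect minus the Rfx3 effect was -0.44 (SE 0.12, adjusted p = 0.029), but the adjusted p was 0.059 with the replicate block, 0.12 without the Rfx2-line libraries with Pdgfra above 10 CPM, 0.058 without such libraries of all lines and 0.052 without Rfx3 WT replicate 6, the lowest of its group.

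Rab8a, which delivers membrane to the cilium, rose slightly in both lines. It was at 71.7, 78.2 and 94.6 CPM in Rfx3 KO, against 64.4, 68.3 and 72.1 CPM in Rfx3 WT, and at 67.9, 73.9 and 78.3 CPM in Rfx2 KO, against 60.3, 66.1 and 73.8 CPM in Rfx2 WT. Neither line separated fully. The log2 fold change was 0.21 in Rfx3 KO (adjusted p = 0.036) and 0.13 in Rfx2 KO (adjusted p = 0.043). Replicate numbers may pair the samples in the Rfx2 line, where 3 of the 6 KO samples correlated best with their own number. The fit behind the calls did not use them. With the replicate as a block the Rab8a adjusted p was 0.061 in that line. Rab8a was called in 4 of the 12 Rfx3 fits and 7 of the 14 Rfx2 fits that left out 1 library each. Rab35, a recycling GTPase, rose in Rfx3 KO by 0.14 on the log2 scale (84.9 to 98.7 CPM in KO and 77.4 to 84.3 CPM in WT, adjusted p = 0.044). Its groups did not overlap, but the call held in 1 of 12 such fits, the one without KO replicate 3.

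The remaining 7 ciliary genes were called in no line with all libraries. Rab10, which has been tied to membrane traffic at the ciliary base, had adjusted p-values of 0.051 in Rfx2 KO and 0.073 in Rfx3 KO, and without Rfx3 KO replicate 3 it was called higher in Rfx3 KO (log2 fold change 0.17, adjusted p = 0.0082). Rab11a and Rab11b, the recycling endosome RABs at the head of the RAB8 cascade, had adjusted p-values from 0.15 to 0.83 in the Rfx2 and Rfx3 lines. Arl2, which acts in tubulin folding and cargo release, was at 26.1, 27.6 and 50.2 CPM in Rfx3 KO, against 22.2, 23.3 and 25.1 CPM in Rfx3 WT. Every KO library was above every sibling and KO replicate 3 was far above the rest, with an adjusted p of 0.073. Without that library the log2 fold change was 0.20 with an adjusted p of 0.0066. Rab29, a regulator of the kinase LRRK2, was at 103.2, 122.0 and 206.7 CPM in Rfx3 KO, against 90.3, 109.7 and 112.9 CPM in Rfx3 WT (adjusted p = 0.15, and 0.14 without KO replicate 3). Rab8b and Rab19 were not called, and Rab19 was near 1 CPM.

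**Figure D2:**
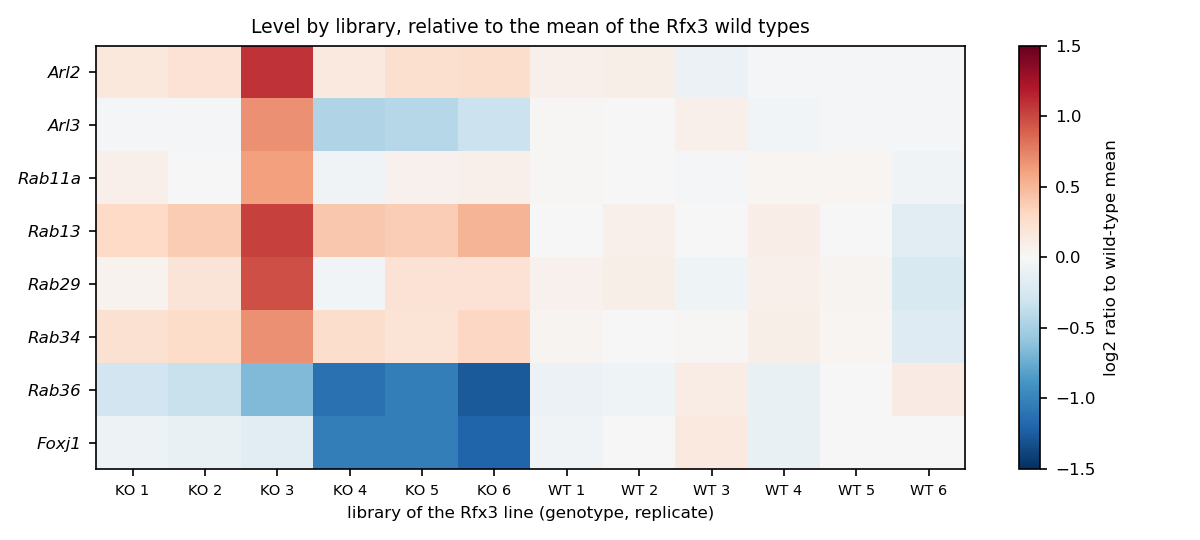
Level in each library of the Rfx3 line as the log2 ratio to the Rfx3 WT mean (colour, red above and blue below), knockouts left of wild types. KO 3 is redder than the other knockouts for Arl2, Arl3, Rab11a, Rab13, Rab29 and Rab34, and KO 4 to 6 are the bluest for Rab36 and Foxj1.

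The regulators of the ARL3 cargo cycle included called genes in both lines. Of 9 tested genes, 3 fell and 1 rose in Rfx2 KO, and 3 fell and 1 rose in Rfx3 KO. Over all genes tested, 18.4% fell and 13.9% rose in Rfx2 KO, and 12.9% fell and 10.6% rose in Rfx3 KO. The median log2 fold change of the 9 was -0.04 in the Rfx2 line and -0.13 in the Rfx3 line, beside 0.01 and 0.02 over all genes tested. Tulp3, the adaptor that carries receptors into the cilium, was at 133.8, 137.3 and 147.9 CPM in Rfx2 KO, against 161.1, 190.3 and 239.2 CPM in Rfx2 WT, without overlap (log2 fold change -0.48, adjusted p = 0.00054). It was at 134.0, 158.0 and 216.1 CPM in Rfx3 KO, against 224.1, 238.2 and 266.0 CPM in Rfx3 WT, again without overlap (log2 fold change -0.53, adjusted p = 0.0092). Inpp5e, the ciliary phosphoinositide phosphatase, fell in both lines. In the Rfx2 line it was at 37.4 to 43.1 CPM in KO and 43.2 to 52.7 CPM in WT (log2 fold change -0.32). Rp2, the GTPase-activating protein of ARL3, fell in Rfx3 KO, with 78.6, 82.3 and 90.9 CPM in KO, against 105.0, 106.9 and 107.9 CPM in WT (log2 fold change -0.35, adjusted p = 0.0011). The single genes that rose were the cargo carrier Unc119 in Rfx2 KO (log2 fold change 0.28) and Cys1, whose product is a lipid-anchored ciliary protein, in Rfx3 KO (0.65).

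Of 25 tested genes of the RAB11 and RAB8 cascade, 5 rose and 3 fell in Rfx2 KO, and 3 fell and 0 rose in Rfx3 KO. Calls in either direction made up 32.3% of all genes tested in the Rfx2 line and 23.5% in the Rfx3 line. Tbc1d30, a GTPase-activating protein for RAB8, fell in both: its mean was 0.55 ± 0.23 CPM in Rfx2 KO (SD, n = 6) and 1.65 ± 0.62 CPM in Rfx2 WT (SD, n = 8), and 0.88 ± 0.35 CPM in Rfx3 KO and 1.74 ± 0.71 CPM in Rfx3 WT (SD, n = 6 each). The log2 fold changes were -1.58 (adjusted p = 0.0024) and -0.97 (adjusted p = 0.037), at a level of few reads. Rab11fip2, a RAB11 effector, fell in Rfx3 KO (41.5 ± 8.1 CPM in KO and 60.03 ± 2.13 CPM in WT, SD, n = 6 each, log2 fold change -0.54), and the exocyst subunit Exoc3 rose in Rfx2 KO (log2 fold change 0.15). Among 17 RAB-like and ARF genes, 4 fell in Rfx2 KO and 1 in Rfx3 KO, where 1 also rose. Rabl2, which links to intraflagellar transport at the ciliary base, fell in both, with 37.1, 43.8 and 45.8 CPM in Rfx2 KO, against 50.7, 71.9 and 88.2 CPM in Rfx2 WT, and 32.7, 50.9 and 69.1 CPM in Rfx3 KO, against 73.6, 79.8 and 87.4 CPM in Rfx3 WT. Neither line's groups overlapped (log2 fold changes -0.72 and -0.67, adjusted p = 0.00028 and 0.019). Ift22, the RAB-like subunit of the IFT-B complex, fell in Rfx2 KO (log2 fold change -0.38).

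The genes grouped here under late endosome and lysosome were called in 1 direction. Of 11 tested, 4 rose in Rfx2 KO (Rab39b, Arl8b, Rab32 and Rab7) and 4 in Rfx3 KO (Arl8a, Rab7, Arl8b and Rab32), and none fell, where 13.9% and 10.6% of all genes tested were called higher. These counts depend on the grouping, which gave each gene 1 role. Rab36, called lower in both lines, was counted as ciliary only. The median log2 fold change of the 11 was 0.10 in the Rfx2 line and 0.21 in the Rfx3 line, beside 0.01 and 0.02 over all genes tested. With the replicate block, Rab7, Arl8b and Rab32 were not called in Rfx3 KO (adjusted p = 0.070, 0.072 and 0.067). Without the libraries with Pdgfra above 10 CPM, none of these genes was called in Rfx3 KO. In Rfx2 KO that exclusion kept Arl8b and Rab32 but not Rab39b (adjusted p = 0.058) or Rab7 (0.13). The Rfx2 call of Rab32 was absent from the fit of all 34 libraries. Arl8b, which couples lysosomes to kinesin, was at 145.7, 160.6 and 174.7 CPM in Rfx3 KO, against 130.4, 138.1 and 143.5 CPM in Rfx3 WT. All KO libraries were above all siblings (log2 fold change 0.22, adjusted p = 0.015). In the Rfx2 line it was at 163.3, 165.6 and 174.2 CPM in KO, against 135.2, 146.8 and 165.0 CPM in WT (log2 fold change 0.14, adjusted p = 0.0053), with overlap at the top of the WT range. Its paralog Arl8a was at 309.1, 360.7 and 392.0 CPM in Rfx3 KO, against 264.9, 274.4 and 284.4 CPM in Rfx3 WT, without overlap (log2 fold change 0.35, adjusted p = 0.0042). In Rfx2 KO Arl8a was not called (adjusted p = 0.83).

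Rab7, which drives fusion of late endosomes with lysosomes, was at 306.5, 337.9 and 352.1 CPM in Rfx3 KO, against 277.2, 284.4 and 298.1 CPM in Rfx3 WT. The groups did not overlap (log2 fold change 0.21, adjusted p = 0.012). In Rfx2 KO its log2 fold change was 0.10 (adjusted p = 0.036, and 0.052 with the replicate block), and it was called in 9 of the 14 fits that left out 1 library. Rab32, of lysosome-related organelles, was at 43.9, 50.4 and 61.9 CPM in Rfx3 KO, against 34.3, 40.8 and 45.0 CPM in Rfx3 WT, and at 58.9, 61.5 and 71.4 CPM in Rfx2 KO, against 48.7, 53.3 and 63.9 CPM in Rfx2 WT. Both lines overlapped slightly (log2 fold changes 0.33 and 0.19, adjusted p = 0.019 in each). Rab39b, linked to human X-linked intellectual disability, separated fully in the Rfx2 line, at 21.1, 22.1 and 22.8 CPM in KO, against 15.9, 18.6 and 20.4 CPM in WT (log2 fold change 0.24, adjusted p = 0.0026). The Rab39b log2 fold change in Rfx3 KO was 0.35 (adjusted p = 0.055), and 0.44 (adjusted p = 0.0055) without KO replicate 3. Of 8 markers of microglia, cells rich in lysosomes, 0 were called in any line, and their summed level was 57.1 to 275 CPM (median 118) in Rfx3 KO and 54.0 to 434 CPM (median 83.3) in Rfx3 WT, and 341 to 1173 CPM (median 951) in Rfx2 KO and 339 to 1098 CPM (median 631) in Rfx2 WT. Of 6 astrocyte markers, 1 was called higher in Rfx3 KO and 3 in Rfx2 KO, and their summed level was 2459 to 5225 CPM (median 4301) in Rfx3 KO and 2306 to 4843 CPM (median 2736) in Rfx3 WT, and 6006 to 11210 CPM (median 8254) in Rfx2 KO and 4723 to 8646 CPM (median 7404) in Rfx2 WT. Of 8 oligodendrocyte-lineage markers, 2 were called higher in Rfx3 KO and 1 in Rfx2 KO, with sums of 208.6 to 591.9 CPM in Rfx3 KO and 122.2 to 343.5 CPM in Rfx3 WT, and 110.7 to 454.6 CPM in Rfx2 KO and 111.9 to 321.5 CPM in Rfx2 WT. Of 6 endothelial and pericyte markers, 3 of them tested, 1 was called higher in each of these lines, with sums of 106.8 to 185.4 CPM in Rfx3 KO and 102.4 to 121.0 CPM in Rfx3 WT, and 170.6 to 271.2 CPM in Rfx2 KO and 110.1 to 184.9 CPM in Rfx2 WT. Cldn5, an endothelial junction gene, was at 0 in every library of Rfx3 KO, Rfx3 WT and Rfx2 KO. Of 9 neuroblast and neuron markers, 2 were called higher and 1 lower in Rfx3 KO, and 0 of 8 tested in Rfx2 KO. Their sums were 60.7 to 191.9 CPM in Rfx3 KO and 60.8 to 77.3 CPM in Rfx3 WT. In the Rfx2 line they were 135.7 to 200.3 CPM in KO and 69.2 to 207.5 CPM in WT. Of 5 choroid plexus markers, 3 of them tested, 2 were called lower in Rfx3 KO and 1 in Rfx2 KO. The part of these cell types in the lysosomal group was not tested.

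**Figure D3:**
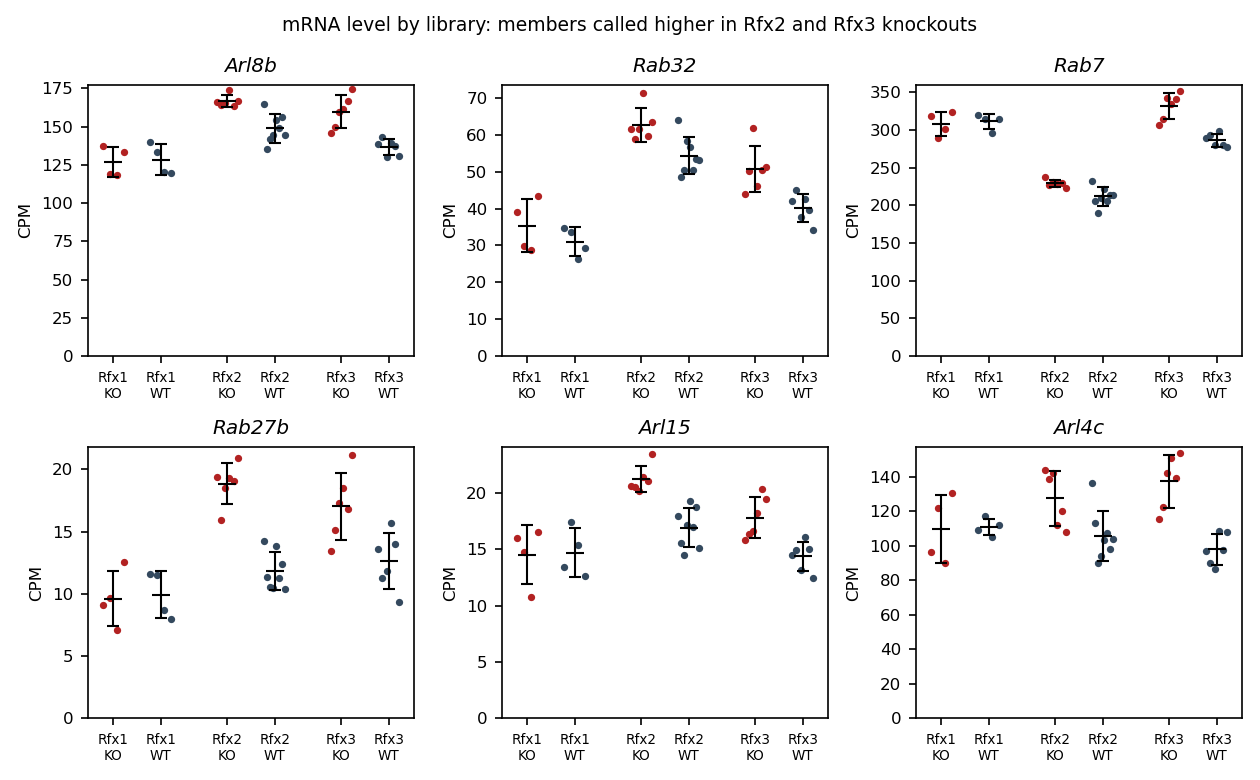
Level by library (points, CPM) of 6 of the 7 genes called higher in both Rfx2 and Rfx3 KO, knockouts in red left of their wild types in dark blue, with the group mean and SD in black. Rfx2 KO lies wholly above Rfx2 WT for Rab27b and Arl15, and Rfx3 KO wholly above Rfx3 WT for Arl8b, Rab7 and Arl4c, while the Rfx1 groups overlap.

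The ER and Golgi group differed in its count of calls between the lines. Of 15 tested, 7 rose in Rfx2 KO and none fell, whereas 1 fell in Rfx3 KO and none rose. The shares over all genes tested were 13.9% higher and 18.4% lower in Rfx2 KO, and 10.6% higher and 12.9% lower in Rfx3 KO. Without Rfx3 KO replicate 3 the difference between the lines was smaller: 5 rose (Rab6b, Rab2a, Rab43, Rab6a and Rab18) and 2 fell (Arl5c and Arl5b) in Rfx3 KO. No difference of effects between these 2 lines passed the test for any of the 15. Rab6a, of retrograde Golgi traffic, was at 168.4, 173.8 and 180.6 CPM in Rfx2 KO, against 146.9, 156.9 and 164.3 CPM in Rfx2 WT, without overlap (log2 fold change 0.13, adjusted p = 0.0039). In Rfx3 KO its log2 fold change was 0.16 (adjusted p = 0.062), and 0.18 (adjusted p = 0.023) without KO replicate 3. Its exons share 19% of their bases with Mrpl48 on the other strand, and no source used here gives the strand setting of the counting. The other 6 were Rab43, Rab33a, Rab6b, Rab1a, Rab18 and Rab2a, with log2 fold changes from 0.07 to 0.69. Rab1a and Rab2a, which act between ER and Golgi, and Rab18, of the ER and lipid droplets, were not called once the replicate block was added (adjusted p = 0.097 for Rab1a, 0.11 for Rab2a and 0.051 for Rab18). Rab43 shares 75.4% of its exon bases with the same-strand Gm45140, and Rab33a was near 1 CPM. With 1 library left out at a time, Rab6b, Rab33a and Rab18 were called in 9 of 14 fits, Rab1a in 7 and Rab2a in 3. The gene that fell in Rfx3 KO was Arl5c, of a Golgi-associated ARL family (0.98, 1.87 and 2.67 CPM in KO, against 2.63, 3.20 and 3.601 CPM in WT, log2 fold change -0.79, adjusted p = 0.023). Its call was lost without KO replicate 4 or 5 or WT replicate 2 or 3, with an adjusted p of at most 0.055.

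Among 12 genes of the early and recycling endosome, 3 rose and 1 fell in Rfx2 KO and 2 rose in Rfx3 KO. Over all genes tested, 13.9% rose and 18.4% fell in Rfx2 KO, and 10.6% rose in Rfx3 KO. Without Rfx3 KO replicate 3, 6 of the group rose in Rfx3 KO (Rab13, Rab5a, Rab21, Rab22a, Rab5b and Rab5c). In that fit the log2 fold change was 0.17 for Rab5a (adjusted p = 0.0095) and 0.13 for Rab22a (adjusted p = 0.015). Rab13, of tight junction and recycling traffic, was at 34.6, 36.8 and 57.3 CPM in Rfx3 KO, against 24.9, 28.0 and 30.2 CPM in Rfx3 WT. No KO library overlapped the siblings (log2 fold change 0.51, SE 0.11, adjusted p = 0.0081, and 0.39 on the log2 scale without KO replicate 3). Rab13 was the only 1 of the 17 Rfx3 calls to hold under every alternative run. Rab21, of integrin endocytosis, rose by 0.22 on the log2 scale in Rfx3 KO (adjusted p = 0.021, and 0.053 without KO replicate 5). In Rfx2 KO the early endosomal Rab22a was at 110.3, 111.4 and 117.0 CPM, against 94.4, 100.8 and 107.7 CPM in Rfx2 WT (log2 fold change 0.14, adjusted p = 0.0011). Rab14, between the Golgi and endosomes, was at 236.9, 241.2 and 247.4 CPM in Rfx2 KO, against 214.8, 221.2 and 230.0 CPM in Rfx2 WT (log2 fold change 0.10, adjusted p = 0.0020). Both separated fully, although the changes were small. Rab31, also of Golgi to endosome traffic, rose (log2 fold change 0.15, adjusted p = 0.031), and Rab15, of endocytic recycling, fell (log2 fold change -0.39, adjusted p = 0.024, lost without KO replicate 1, 2 or 3, with an adjusted p of at most 0.061). Rab31 was called in 9 of the 14 fits that left out 1 library.

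The secretory GTPases split in Rfx2 KO, where Rab27b rose and Rab26 and Rab27a fell among 6 tested. Over all genes tested in that line, 13.9% rose and 18.4% fell. Rab27b, of granule and exosome secretion, was at 15.9, 19.2 and 20.9 CPM in Rfx2 KO, against 10.4, 11.3 and 14.3 CPM in Rfx2 WT. All KO libraries were above all siblings (log2 fold change 0.65, SE 0.080, adjusted p = 8.05e-05). In Rfx3 KO it was at 13.4, 17.0 and 21.1 CPM, against 9.33, 12.7 and 15.7 CPM in Rfx3 WT, with overlap (log2 fold change 0.42, adjusted p = 0.039). That call held in 4 of 12 fits that left out 1 library. Rab26, of secretory granule maturation, was at 0.76, 1.05 and 1.33 CPM in Rfx2 KO, against 1.28, 1.94 and 2.44 CPM in Rfx2 WT (log2 fold change -0.85, adjusted p = 0.0051), and at 2.08, 2.87 and 4.03 CPM in Rfx3 KO, against 2.05, 2.404 and 3.52 CPM in Rfx3 WT (adjusted p = 0.42). The Rfx2 effect minus the Rfx3 effect was -1.06 (SE 0.30, adjusted p = 0.038) for Rab26, a difference not called in 10 of the 34 fits that left out 1 library, with the replicate block (adjusted p = 0.11) or without the libraries with Pdgfra above 10 CPM of the Rfx2 line (0.051) or of all lines (0.068). Rab26 also shares 9.36% of its exon bases with the same-strand Traf7. Rab27a, the melanosome and granule RAB, had a log2 fold change of -0.31 in Rfx2 KO (adjusted p = 0.044, and 0.17 with the replicate block), called in 3 of the 14 fits that left out 1 library. Rab3d, of secretory vesicles, rose in Rfx3 KO (22.2, 25.7 and 30.6 CPM, against 18.45, 19.67 and 22.03 CPM in Rfx3 WT, log2 fold change 0.37, adjusted p = 0.0096), without overlap.

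Of the remaining genes, Arl4c and Arl15 rose and Rab42 fell in both lines. Arl4c, which recruits ARF exchange factors to the plasma membrane, was at 115.3, 140.7 and 154.0 CPM in Rfx3 KO, against 86.6, 97.0 and 108.7 CPM in Rfx3 WT, without overlap (log2 fold change 0.48, adjusted p = 0.0035). In Rfx2 KO its log2 fold change was 0.25 (adjusted p = 0.048, called in 4 of 14 fits that left out 1 library). Arl15 was at 20.2, 20.8 and 23.5 CPM in Rfx2 KO, against 14.5, 17.1 and 19.3 CPM in Rfx2 WT, without overlap (log2 fold change 0.31, adjusted p = 0.0018). In Rfx3 KO it was at 15.8, 17.4 and 20.4 CPM, against 12.4, 14.7 and 16.1 CPM in Rfx3 WT (log2 fold change 0.30, adjusted p = 0.026, called in 6 of 12 such fits). Rab42 was at 0.72, 1.04 and 1.29 CPM in Rfx2 KO, against 1.14, 1.69 and 2.23 CPM in Rfx2 WT (log2 fold change -0.76, adjusted p = 0.0043), and at 0.98, 1.45 and 2.28 CPM in Rfx3 KO, against 2.16, 2.68 and 3.32 CPM in Rfx3 WT (log2 fold change -0.75, adjusted p = 0.026, called in 7 of 12 such fits). Arl16, which moves ciliary cargo from the Golgi in mouse fibroblasts, was at 10.3, 11.4 and 12.1 CPM in Rfx2 KO, against 12.1, 12.9 and 14.2 CPM in Rfx2 WT (log2 fold change -0.23, adjusted p = 0.0065). Without Rfx3 KO replicate 3, Arl16 was also called lower in Rfx3 KO (log2 fold change -0.24, adjusted p = 0.025). Arl4a, a paralog of Arl4c, fell in Rfx3 KO (51.6, 76.5 and 97.4 CPM, against 98.7, 105.7 and 110.8 CPM in Rfx3 WT, log2 fold change -0.50, adjusted p = 0.045), a call that held in 3 of 12 such fits. Its low libraries were KO replicates 4 to 6, those with low Foxj1, at 53.3, 59.3 and 51.6 CPM, while KO replicates 1 to 3 were at 93.8, 97.4 and 96.5 CPM. Arl10 rose in Rfx2 KO (log2 fold change 0.20, adjusted p = 0.010, and 0.057 with the block).

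**Figure D4:**
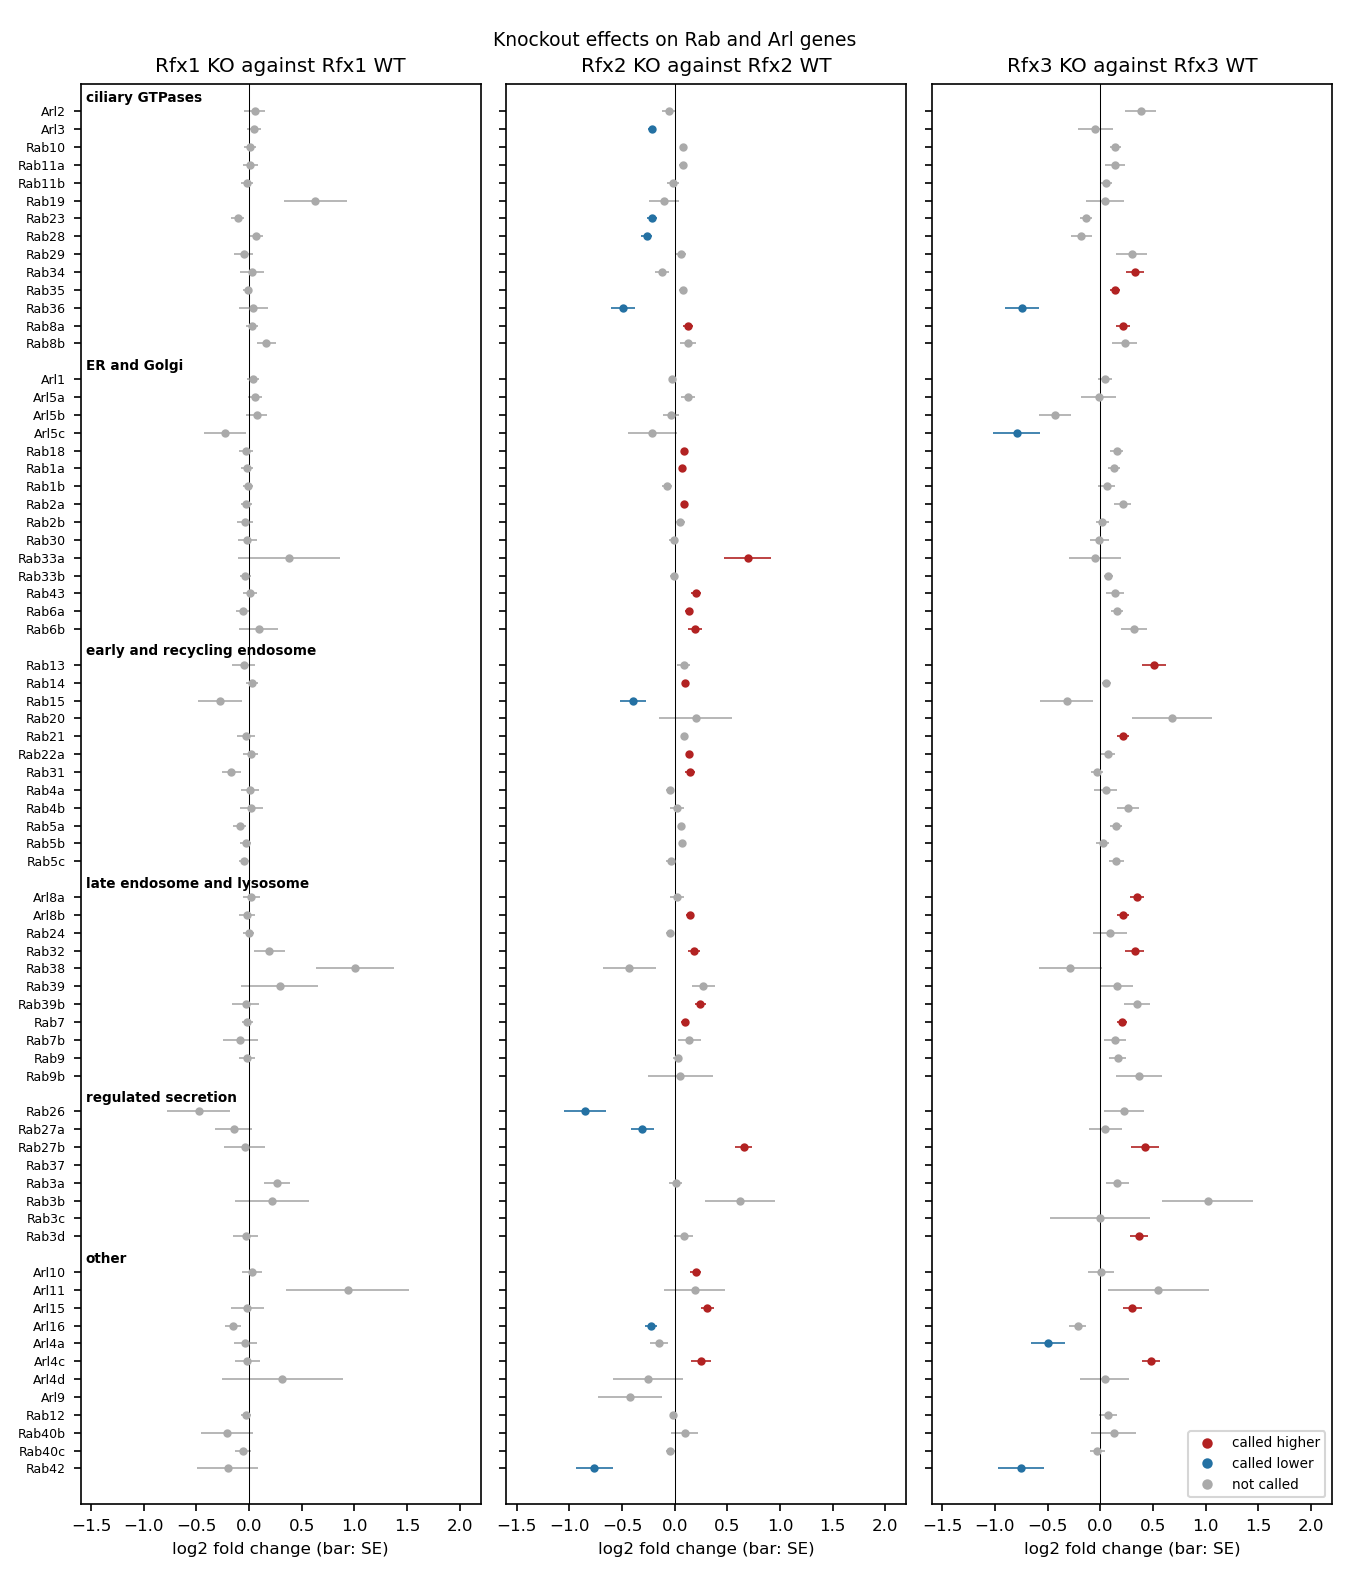
Log2 fold change (KO against WT, bars show 1 SE) of each RAB and ARL gene in the 3 lines, grouped by role, red where called higher, blue where called lower and grey where not called. The Rfx1 panel has no coloured point, the lower calls in the Rfx2 panel include 4 ciliary genes, and the late endosome and lysosome genes hold 4 higher calls and no lower call in both the Rfx2 and the Rfx3 panel.

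The exchange factors and GTPase-activating proteins of RABs were called in both directions. Over all genes tested, 13.9% rose and 18.4% fell in Rfx2 KO (32.3% together), and 10.6% rose and 12.9% fell in Rfx3 KO (23.5% together). Of 31 exchange factors and activators, 8 rose and 3 fell in Rfx2 KO, and 1 rose and 0 fell in Rfx3 KO. Rin2, an exchange factor for RAB5, rose in both, to 88.9, 94.3 and 103.3 CPM in Rfx2 KO, against 68.5, 73.9 and 78.1 CPM in Rfx2 WT (log2 fold change 0.35, adjusted p = 2.6e-05), and by 0.24 on the log2 scale in Rfx3 KO (adjusted p = 0.045). Of 35 TBC-domain proteins, which inactivate RABs, 6 rose and 7 fell in Rfx2 KO, and 4 rose and 8 fell in Rfx3 KO. Sgsm1, a TBC protein that binds several RABs, was at 5.94, 7.80 and 12.1 CPM in Rfx3 KO, against 20.6, 25.6 and 32.1 CPM in Rfx3 WT. No KO library came near the siblings (log2 fold change -1.67, SE 0.17, adjusted p = 0.00021). Tbc1d32, needed for ciliary Hedgehog signalling in the mouse, fell in Rfx3 KO (43.3 ± 10.1 CPM in KO and 70.9 ± 4.8 CPM in WT, SD, n = 6 each, log2 fold change -0.72), and Tbc1d10a, an inactivator of RAB27 and RAB35, rose there (21.8 ± 4.5 CPM in KO and 13.6 ± 0.67 CPM in WT, SD, n = 6 each, log2 fold change 0.68). Sgsm3 fell in Rfx2 KO (log2 fold change -0.38) and Rabgap1 and Rabgap1l rose (0.19 and 0.22). Of 8 genes for RAB prenylation and extraction, Chml rose and Rabggta fell in Rfx2 KO, and Rabggtb and Rabggta, the subunits of the RAB prenylating enzyme, rose in Rfx3 KO.

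In Rfx1 KO 0 of 67 tested RAB and ARL genes were called by edgeR, where 0.00723% of all 13830 genes were. DESeq2 and limma-voom also called 0. Rab38, linked to lysosome-related organelles, was the single gene of the 67 with an unadjusted p below 0.05 in edgeR, against 2.03% of all genes. The median log2 fold change was -0.02, beside 0.00 over all genes tested, and 281 genes of all had an unadjusted p below 0.05. Set against the Rfx3 effect, 6 of 72 genes differed (8.33%, against 7.75% of all 14833 genes, 4.79% higher and 2.95% lower): the Rfx1 effect minus the Rfx3 effect was 0.77 for Rab36 (adjusted p = 0.033), and it was -0.57 for Rab13 (0.021), -0.50 for Arl4c (0.042), -0.25 for Rab5a (0.021), -0.23 for Rab7 (0.032) and -0.23 for Rab6a (0.042). The Rfx1 and Rfx2 effects differed for 0 of 72 (0.829% of all genes differed, 0.593% higher and 0.236% lower, with 11 of the 72, or 15.3%, below an unadjusted p of 0.05 and 14.2% of all genes), and the Rfx2 and Rfx3 effects for 2, Rab34 and Rab26 (2.78%, against 3.84% of all genes, 2.10% higher and 1.74% lower). Without the libraries of all lines with Pdgfra above 10 CPM, the Rfx1 and Rfx3 effects differed for 0 genes and the Rfx2 and Rfx3 effects for 6, with neither Rab34 nor Rab26 among them. These counts moved with single libraries: the Rfx1 and Rfx3 effects differed for 0 genes without Rfx1 KO replicate 3 or WT replicate 2 and for 1 without Rfx1 WT replicate 1. They differed for 2 or 3 without Rfx3 KO replicate 4, 5 or 6 or WT replicate 3, and for 11 or 12 without Rfx1 KO replicate 4 or Rfx3 KO replicate 1, 2 or 3. The Rfx2 and Rfx3 effects differed for 0 without Rfx3 WT replicate 6, for 1 without Rfx2 KO replicate 2 or 3, Rfx2 WT replicate 6 or 8, Rfx3 KO replicate 6 or Rfx3 WT replicate 1, 3 or 5, and for 4 without Rfx2 KO replicate 6, Rfx2 WT replicate 3 or Rfx3 KO replicate 1 or 2. The Rfx1 and Rfx2 effects differed for 1 or 2 without Rfx1 KO replicate 1 or 4, Rfx1 WT replicate 4, Rfx2 WT replicate 1 or Rfx3 KO replicate 3.

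Of 69 genes tested in both the Rfx2 and Rfx3 lines, which share no samples, 7 rose in both (Rab8a, Rab7, Arl8b, Rab32, Arl15, Arl4c and Rab27b) and 2 fell in both (Rab36 and Rab42). None was called in opposite directions. Over all 14086 genes tested in both, 3.25% rose in both and 8.63% fell in both. The 7 were 36.8% of the 19 higher calls of the Rfx2 line and 53.8% of the 13 of the Rfx3 line, beside 23.0% and 30.2% over all genes, and the 2 came from 9 and 4 lower calls. Without Rfx3 KO replicate 3, 14 rose and 5 fell in both, without Rfx2 WT replicate 3 or 4, Rfx3 KO replicate 4, 5 or 6 or Rfx3 WT replicate 3 or 6, 4 rose in both, without Rfx3 KO replicate 4 or 6 or Rfx3 WT replicate 1, 2 or 3, 1 fell in both, and without the libraries with Pdgfra above 10 CPM, 0 did in either direction when they were left out of both lines, and 5 rose and 1 fell when they were left out of the Rfx2 line alone.

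Leaving out the libraries with Pdgfra above 10 CPM kept 3 KO and 5 WT libraries in the Rfx2 line and 2 KO and 5 WT libraries in the Rfx3 line, where KO replicate 3 was among those kept. It took away Rfx3 KO replicates 4 to 6, all the Rfx3 KO libraries with low Foxj1. The part of Pdgfra and of low Foxj1 in the lost Rfx3 calls was not tested. All 28 Rfx2 calls kept their sign and 15 stayed called, among them all 4 lower ciliary genes, Rab36 with a log2 fold change of -0.29 (adjusted p = 0.031). All 17 Rfx3 calls kept their sign and 1, Rab13, stayed called. There Rab36 had a log2 fold change of -0.48 (adjusted p = 0.053). With Rfx3 KO replicate 3 alone left out, all 17 Rfx3 calls stayed and 25 genes rose and 8 fell in that line. Fewer were called without other single libraries: 8 rose without KO replicate 5, and 1 or 2 fell without KO replicate 4, 5 or 6 or WT replicate 1, 2 or 3. In the Rfx2 line 12 rose without KO replicate 1 and 11 without WT replicate 3.

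In wild types, levels per kilobase of exon spanned a wide range. Ranked on the mean over the 18 wild-type libraries, Rab31 was highest at 198.7 ± 25.6 CPM per kilobase (SD, n = 18), then Arl8a at 134.6 ± 17.0 and Rab7 at 99.1 ± 17.4, whose neighbour Rab5c, at 96.7 ± 7.0, lay within that spread. The lowest were Rab9b at 0.119 ± 0.047, Rab37 at 0.041 ± 0.015 and Rab3c at 0.022 ± 0.021 CPM per kilobase. Rab31 and Arl8a held their ranks in each wild-type group, whereas Rab7, at 81.1 CPM per kilobase in Rfx2 WT, stood below Rab5c at 93.6 and Rab29 at 85.5, and Rab3c, at 0.039 in Rfx3 WT, stood above Rab37 at 0.030. The ciliary genes ran from 78.7 ± 9.2 for Rab29 to 0.694 CPM per kilobase for Rab19, with Arl3 at 46.3 ± 5.1, Rab28 at 17.6 ± 1.3, Rab36 at 17.1 ± 2.0, Rab34 at 13.9 ± 1.1 and Rab23 at 8.59 ± 0.54. Rab28 and Rab36 did not differ beyond their spread. The 3 wild-type groups differed by F test for 39 of the 72 genes (54.2%), against 57.7% of all genes, and line and any batch cannot be told apart. Rab11b averaged 29.7 CPM per kilobase in Rfx1 WT, 18.9 in Rfx2 WT and 29.2 in Rfx3 WT (adjusted p = 1.59e-11), while Rab36 averaged 17.7, 16.6 and 17.4 (adjusted p = 0.81).

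**Figure D5:**
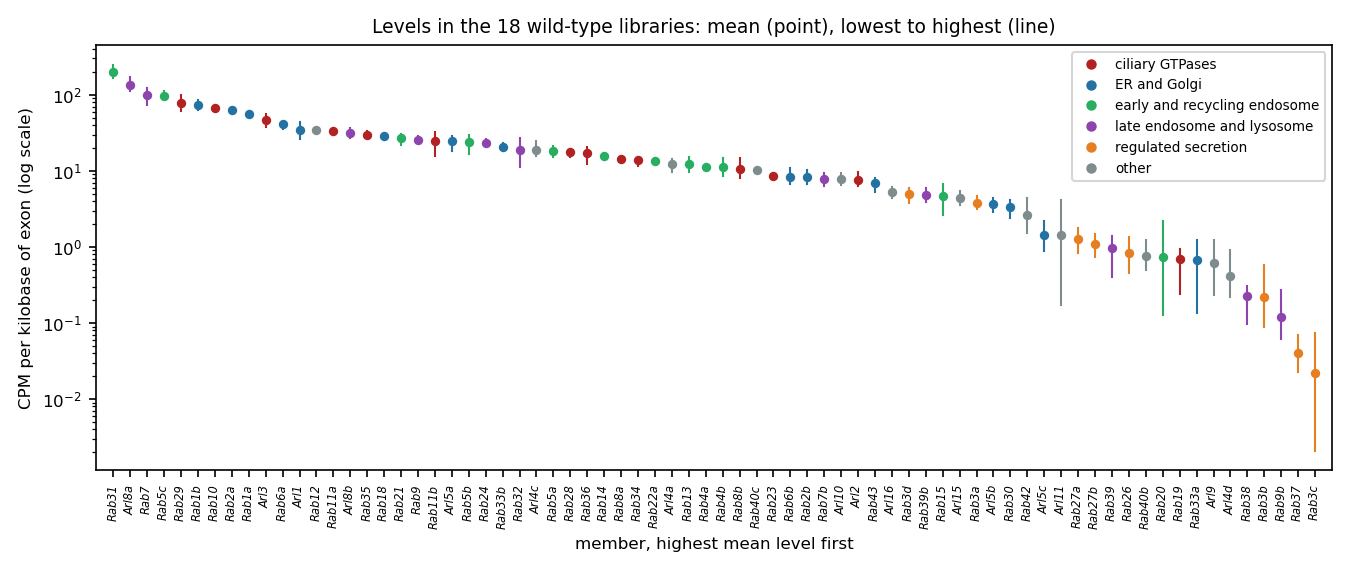
Level of each RAB and ARL gene in the 18 wild-type libraries as CPM per kilobase of exon on a log axis, ordered by the mean (point) with a line from the lowest to the highest library and colour by role. Rab31 stands at the top at 198.7 and Rab3c at the bottom at 0.022 CPM per kilobase.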

How the data were processed

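The authors deposited raw counts per Ensembl gene, 1 column per sample. The submitters' processing notes name CASAVA 1.8.2, STAR 2.4, featureCounts 1.4.6 and GRCm38. No source used here gives the strand setting or the release of the annotation. Of 21647 rows, 21583 matched GENCODE M21, which gave symbols, positions and exon lengths. Groups and replicate numbers came from the sample titles. A gene that the symbol rule also picks is not reported here and is in none of the counts of RAB and ARL genes.

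KO and WT of a line were compared in a fit of that line only, in edgeR 4.0.16 under R 4.3.3 (filterByExpr, min.count 10 and min.total.count 15, TMM, two-sided quasi-likelihood F test, Benjamini-Hochberg threshold 0.05 over all genes kept), after the code was tested on simulated data. Differences between lines and between wild types came from a fit of all 34 libraries. Each SE given was the size of the log2 fold change or difference divided by the square root of F. Alternatives were DESeq2 1.42.0, RLE scaling, limma-voom (limma 3.58.1), other filters, a replicate block, a Y-linked covariate, the fit of all libraries, leaving out each library, and leaving out libraries with Pdgfra above 10 CPM. Same-numbered KO and WT samples deviated together in all 6 pairs of the Rfx2 line (correlations 0.139 to 0.578), so the numbers were taken as a possible pairing there. Only 3 of the 6 KO samples correlated best with the WT sample of their own number. KO replicate 3 was at 0.139 with WT replicate 3 and at 0.622 with WT replicate 2. WT replicates 7 and 8 had no KO sample of their number. The fit behind the calls did not use the pairing, and the replicate block was an alternative only.

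Named genes were all ciliary members, members called alike in 2 lines, the 8 smallest p-values per line, 5 per contrast, the 3 highest and 3 lowest levels, and up to 3 called genes per regulator list and line. Other genes were named after their values were seen. The members, lists and this rule were chosen with earlier results of these data known.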

Additional observations from a re-analysis of the deposited data

Results flagged for a closer look

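In 204 checks, of 34 named genes in 6 groups, 20 had a library whose gap to the nearest other exceeded Dixon's limit, where chance gives about 1 in 20. Of these, 7 were Rfx3 KO replicate 3, as the highest library for each of the 7 genes: Arl2 at 50.2 CPM (others up to 28.4), Arl3 at 196.1 (up to 120.0), Rab11a at 151.0 (up to 103.8), Rab13 at 57.3 (up to 40.0), Rab29 at 206.7, Rab34 at 54.6 (up to 42.2) and Rab35 at 98.7 (up to 89.3). Among all 72 genes this library was also the lowest Rfx3 KO library for 16. The cause was not tested.

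In Rfx3 WT replicate 6, Rab34 was low at 29.6 CPM (others from 34.1) and Rab8b high at 53.8 (others up to 43.4). In Rfx2 KO replicate 4, Arl8b was high at 174.2 CPM and Rab32 at 71.4. In Rfx2 WT replicate 1, Rab35 was high at 93.2 CPM, Rab3c at 0.520 and Rab9b at 1.07, and in Rfx2 WT replicate 5 Arl3 was low at 93.7. In the Rfx1 line, KO replicate 1 was high for Rab10 at 253.6 CPM and Rab19 at 1.46, KO replicate 2 low for Rab14 at 194.2, KO replicate 4 high for Arl2 at 29.9, and WT replicate 3 low for Rab29 at 100.9.

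Effects differed between lines, in the fit of all 34 libraries, for 8 genes and contrasts. As Rfx2 effect minus Rfx3 effect, the log2 difference was -0.44 for Rab34 and -1.06 for Rab26. As Rfx1 effect minus Rfx3 effect, it was 0.77 for Rab36, -0.50 for Arl4c, -0.25 for Rab5a, -0.57 for Rab13, -0.23 for Rab7 and -0.23 for Rab6a.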

How the results depend on the processing

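Of the 28 Rfx2 calls, 17 held in every fit that left out 1 library and 10 under every alternative run. Of the 17 Rfx3 calls these numbers were 9 and 1, and no called gene changed sign under any alternative. With 1 library left out, the Rfx1 line had 0 to 0 genes higher and 0 to 0 lower, the Rfx2 line 11 to 24 higher and 7 to 9 lower, and the Rfx3 line 8 to 25 higher and 1 to 8 lower, while 4 to 14 rose and 1 to 5 fell in both lines. Contrasts called 0 to 2 (Rfx1 against Rfx2), 0 to 12 (Rfx1 against Rfx3) and 0 to 4 genes (Rfx2 against Rfx3).

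Without the libraries with Pdgfra above 10 CPM, 10 genes rose in Rfx2 KO, 1 rose and 0 fell in Rfx3 KO, 0 rose and 0 fell in both, the Rfx2 and Rfx3 effects differed for 6 and the Rfx1 and Rfx3 effects for 0. With such libraries left out of the Rfx2 line alone, 1 fell in both and the Rfx2 and Rfx3 effects differed for 0. Leaving them out of the Rfx1 and Rfx3 lines, of both lines for the shared counts and of all lines for the contrasts was chosen after seeing the data, as was leaving out single libraries for the shared counts and the 3 contrasts. Leaving out the libraries with Pdgfra above 10 CPM leaves 2 Rfx3 KO libraries, neither of them with low Foxj1. The fit of all 34 libraries called 27 higher and 7 lower in Rfx3 KO and 4 lower in both lines. DESeq2 called 7 lower in Rfx3 KO, and 13 higher and 4 lower in both. Without the low-count filter and with the Y-linked covariate, 4 rose in both. With the member filter, the Rfx2 and Rfx3 effects differed for 4. In each case the cause was not tested.

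With the replicate block, 14 genes rose and 8 fell in Rfx2 KO, and 21 of the 28 Rfx2 calls stayed. With it 5 genes rose in Rfx3 KO, 1 rose in both lines and the Rfx2 and Rfx3 effects differed for 0. In the Rfx1 and Rfx3 lines the numbers were not taken to pair the samples: pair correlations ran from -0.0652 to 0.332 and from -0.332 to 0.198. There 2 of 4 and 1 of 6 KO samples correlated best with their own number, against 3 of 6 in the Rfx2 line. The block moved no other of these counts by over 1.5 times. The symbol rule read loosely gave 85 genes past the filter. Depth limits the precision most for the genes near 1 CPM, such as Rab42 and Rab26.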

Other observations

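Arl11 and Rab20, chosen after their values were seen, had levels that followed the line more than the genotype. Arl11, known from macrophages, averaged 6.71 ± 2.34 CPM in Rfx2 KO (SD, n = 6) and 5.83 ± 2.48 CPM in Rfx2 WT (SD, n = 8), against 1.73 ± 0.81 CPM in Rfx3 KO and 1.185 ± 1.003 CPM in Rfx3 WT (SD, n = 6 each) and 1.20 ± 0.87 CPM in Rfx1 KO and 0.650 ± 0.206 CPM in Rfx1 WT (SD, n = 4 each). It was called in no line, while the wild-type groups differed by the edgeR F test (adjusted p = 1.32e-06). Rab20, an endosomal RAB, averaged 1.88 CPM in Rfx2 KO and 1.64 CPM in Rfx2 WT, against 0.732 CPM in Rfx3 KO and 0.454 CPM in Rfx3 WT. Summed microglial markers had medians of 951 CPM in Rfx2 KO and 631 CPM in Rfx2 WT, 118 CPM in Rfx3 KO and 83.3 CPM in Rfx3 WT, and 91.5 CPM in Rfx1 KO and 56.6 CPM in Rfx1 WT. Their part in these levels was not tested.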
